A study of Mus musculus with 18 samples.

Results

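The step from postnatal day 7 (P7) to postnatal day 14 (P14) was examined in livers of mouse pups that had been given a mimic of the microRNA miR-497a-5p. Its members were the 3 P14 and the 3 P7 libraries labelled as mimic livers, 6 of the 18 libraries in the series. They were taken by their labels, and the comparison was chosen with earlier results of these data known. All 18 libraries were poly(A) RNA sequencing libraries from whole liver of C57BL/6J pups, with no transgene or mutant allele named. Every pup had been injected intraperitoneally on P1, the day of birth, and on P3, with either the miR-497a-5p mimic or a scrambled control mimic. Tissue was collected at P5, P7 and P14, which gave 6 groups of 3 livers. Both groups compared here had therefore received the mimic and differed in age, and the P14 livers were taken 11 days after the second injection. The protocol describes doses of 10 and 100 mg/kg, and the labels do not say which dose a library had. They name neither litters nor dams for single libraries, so the p-values measure the spread between these livers, and litter and age cannot be told apart.

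Around birth the mouse liver is still a site of blood formation, which then passes to the bone marrow and spleen, while hepatocytes slow their division and take on the enzymes of the adult liver. MiR-497 belongs to the miR-15/16 family, whose members share a seed, the stretch of the microRNA that pairs with target messenger RNAs, and are known for repressing cyclins and other cell cycle genes. The mature sequence is shown because both groups had received a mimic of it, and the capitals mark the seed, bases 2 to 8:

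mmu-miR-497a-5p: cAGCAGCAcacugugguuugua

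This 22-base RNA lies at chr11:70234730-70234751 on the plus strand of GRCm38 (mm10), inside the microRNA gene Mir497 (chr11:70234717-70234800), according to RefSeq and the GENCODE annotation. All coordinates below are on the same build and 1-based.

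The deposited values were gene counts that the authors had scaled between libraries and rounded, called scaled counts here. They summed to between 3968022 and 4222005 in the 6 libraries, so depth after scaling was nearly even, and the sequenced depth is not recoverable from them. Hepatocyte transcripts were high in all 6, with Alb (albumin) at 1672 to 2244 and Apob (apolipoprotein B) at 3515 to 7174. Abundant genes were recorded at low density for their length: Alb reached at most 1.10 scaled counts per base of its longest transcript, and 326 tested genes passed 0.5. A compressed range for such genes was not tested. Transcript length separated the libraries by age. The rank correlation between a gene's length and its deviation from the mean of all libraries was 0.485, 0.0534 and 0.459 in P7 replicates 1, 2 and 3, and −0.241, −0.00893 and −0.199 in P14 replicates 1, 2 and 3. P7 replicates 1 and 3 thus stood apart from P7 replicate 2. In the bin of the longest 1410 genes, with a median of 8213 bases, the median deviation was 0.28, 0.03 and 0.27 log2 units at P7 and −0.12, 0.02 and −0.13 at P14. The shortest 1410 genes, with a median of 955 bases, had deviations of −0.25, −0.00 and −0.25 at P7 and 0.19, 0.02 and 0.11 at P14. The P7 scrambled livers, used only where the treatments are set side by side, also stood apart. Their sums of muscle, pancreas, gut and fat genes were 2114, 466 and 977 in replicates 1, 2 and 3, against 422 to 628 in the other 15 libraries. Replicates 3 and 2 had 30412 and 22132 genes above 0, against 19198 to 20418 in the other 16. Because of the spread in length the main counts or medians below are also given with a correction for length and with P7 replicate 2 as the lone P7 liver. A fit with 1 P7 liver also has less power to call genes, so its counts do not measure the part of length.

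**Figure D1:**
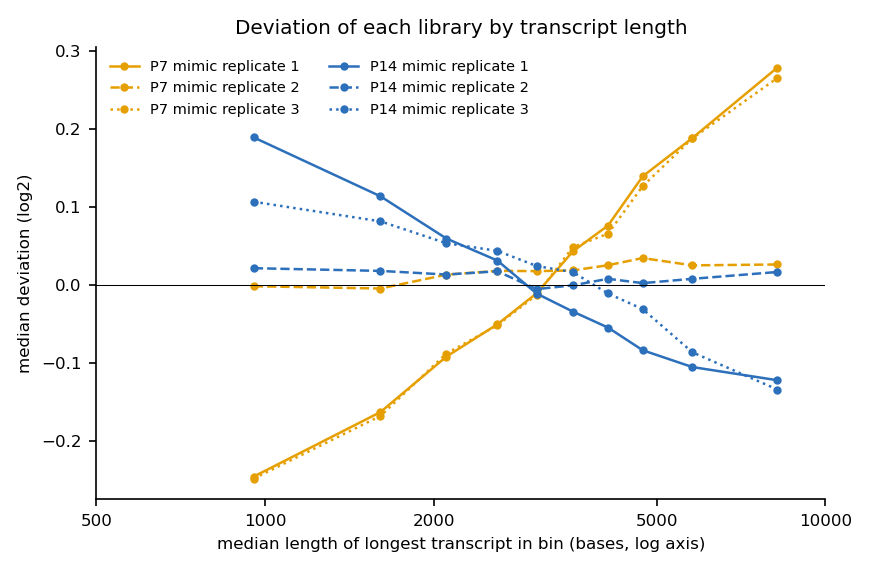
Median log2 deviation of each of the 6 mimic libraries from the mean of all 18, against the median transcript length (bases, log axis) of 10 bins of genes; lines are libraries, coloured by age. P7 replicates 1 and 3 rise with length to 0.28 and 0.27 in the longest bin, P14 replicates 1 and 3 decline to −0.12 and −0.13, and replicate 2 of each age stays near 0.

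In the whole table of 31165 genes, 14104 averaged at least 10 scaled counts across the 18 libraries and were tested. Just inside that limit stood Ccdc92, with a mean of 10.0, and just outside it Clec4e, with a mean of 9.94. With limma on log2(scaled count + 1), 4163 of these genes (29.5%) passed an adjusted p of 0.05 between P14 and P7, 1750 higher at P14 (12.4%) and 2413 lower (17.1%). Larger changes, sized by the log2 difference, were mostly falls. Of the called genes 227 rose and 849 fell by at least 1 log2 unit, and 14 rose and 93 fell by at least 3. The 3 values of one age did not overlap those of the other for 6136 genes (43.5%). Quantile normalization turned the balance to 2439 higher and 2120 lower, and moved the median over all genes from 0.01 to 0.07 log2 units. Genes called higher were shorter (median 2290 bases) and genes called lower longer (4206 bases) than all tested genes (3293 bases). Across genes, length and log2 change had a rank correlation of −0.339, which was −0.225 in the scrambled livers. With the length correction 3736 of 14096 genes with a length (26.5%) were called, 1563 higher (11.1%) and 2173 lower (15.4%). Of the 4163 called without it, 3057 were called in the same direction with it and 0 in the opposite one. Also called in the same direction were 1020 of the 1076 called genes with a change of at least 1 log2 unit. The gene lists used below have 676 entries in 35 lists, of which 649 passed the filter. The number of calls fell to 2448 without P7 replicate 1, to 2495 without P7 replicate 3 and to 2633 without P14 replicate 1, and it was 956 when P7 replicate 2 was the only P7 liver.

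**Figure D2:**
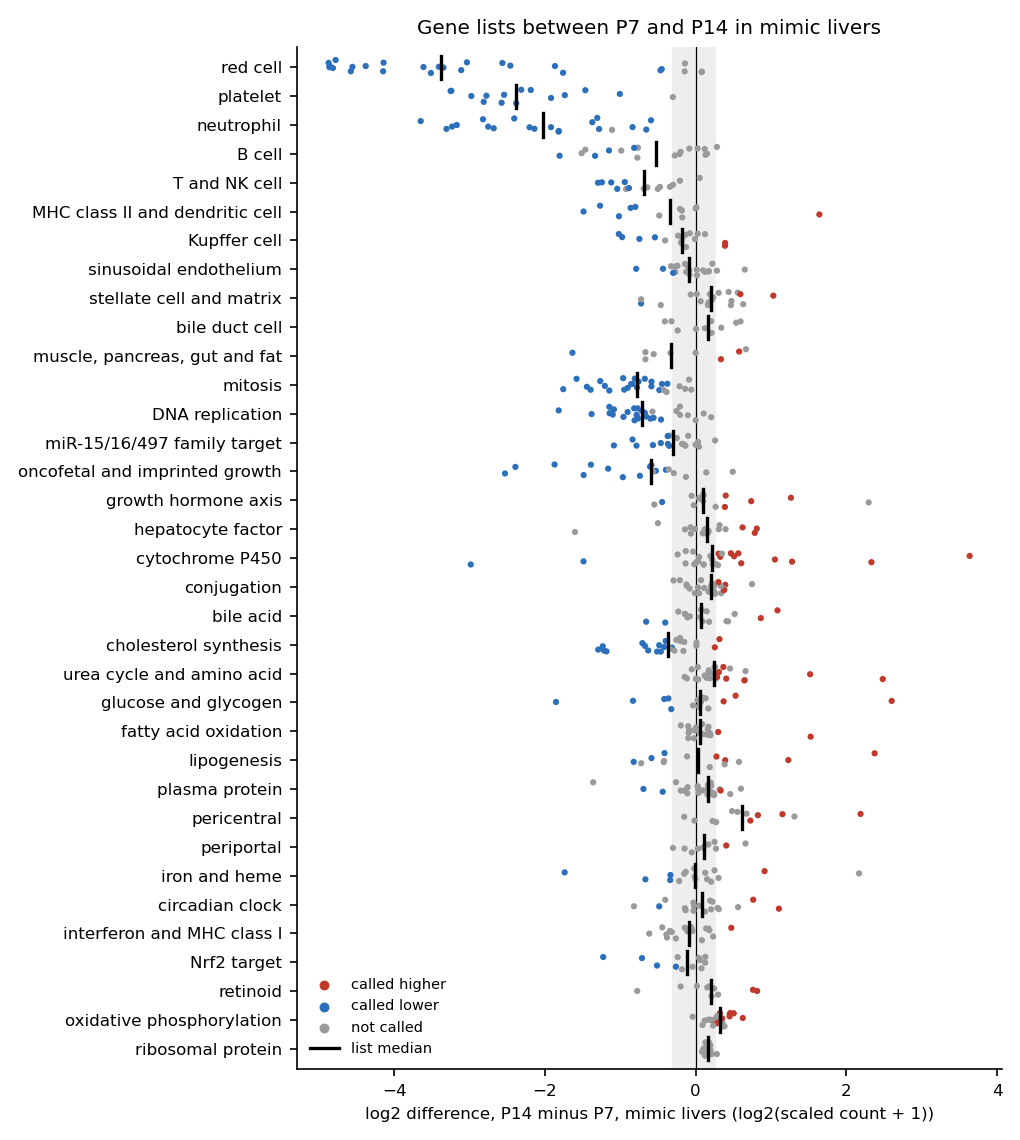
Log2 difference between P14 and P7 mimic livers (log2(scaled count + 1)) for the tested members of 35 gene lists; each point is a gene, red called higher, blue called lower, grey not called, black bars list medians, and the grey band is the interquartile range of all tested genes. The red cell, platelet and neutrophil medians lie at −3.38, −2.38 and −2.03, and most other medians lie within 1 log2 unit of 0.

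Transcripts of developing red cells had the lowest median of the 35 lists. Of 26 tested genes on a red cell list, 22 were lower at P14 (84.6%, against 17.1% of all tested genes) and 0 were higher, with a median log2 difference of −3.38. Their summed scaled counts were 15435, 20155 and 18480 at P7 and 4052, 4961 and 3811 at P14, so every P14 liver lay far below every P7 liver. Slfn14, which encodes a ribosome-associated Schlafen protein, gave 250, 359 and 374 scaled counts at P7 and 5, 11 and 4 at P14. The groups did not overlap, and the mean was 49.1-fold lower at P14 (log2 difference −5.51, SE 0.36, limma adjusted p 5.17e-09). It was the largest fall among genes with separate values that averaged at least 100 scaled counts in the 6 livers. The gene lies at chr11:83275110-83286726. In bulk liver, fewer cells of a type and less RNA per cell cannot be told apart, here and for every cell type below.

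Several of the named red cell genes, picked by the p or size of their change, encode parts of the membrane skeleton. Sptb (beta spectrin) gave 1196, 1590 and 1634 scaled counts at P7 and 142, 120 and 150 at P14, a mean 10.7-fold lower (log2 difference −3.41, SE 0.20, limma adjusted p 1.87e-09). Ank1 (ankyrin, which ties spectrin to the membrane) had 927, 1209 and 1264 against 55, 51 and 21, a log2 difference of −4.81. Neither gene overlapped between ages. Add2 (beta adducin, which caps the skeleton) had 493, 733 and 650 at P7 and 18, 30 and 13 at P14. Of the surface proteins, Ermap, an erythroblast membrane protein, had 751, 966 and 908 at P7 and 40, 32 and 19 at P14, and Rhag, the Rh-associated glycoprotein, had 424, 573 and 504 against 23, 43 and 12. Kel, the Kell blood group metalloendopeptidase (chr6:41686330-41704339), had 334, 476 and 454 against 15, 23 and 13, a log2 difference of −4.57. All of these genes were lower in each P14 liver than in each P7 liver. Separate values were a condition for picking by size of change, the way Ank1, Add2 and Rhag were named. They were found in 43.5% of all tested genes. Picking by smallest p also favours separate values, here and for the list members named below.

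Nuclear factors of the lineage were also among the named genes, picked in the same way. Gata1, the master regulator of red cell and platelet precursors, gave 229, 270 and 291 scaled counts at P7 and 16, 12 and 3 at P14 (log2 difference −4.78, SE 0.44, limma adjusted p 3.69e-07). Tal1, a partner of Gata1, had 569, 700 and 691 against 81, 76 and 67, a log2 difference of −3.11. Hemgn, a nuclear protein of blood progenitors, had 573, 754 and 701 against 31, 48 and 14, a log2 difference of −4.55. No P14 value of these 3 genes reached a P7 value, which the picking by size required of Gata1 and Hemgn. Among the 12 largest falls within those limits were also Btnl10, a butyrophilin-like gene (log2 difference −5.25), Apol8, an apolipoprotein L family gene (−4.95), and Sowaha (−4.61). The hemoglobin genes, named here after their values were seen, were not called. Hbb-bs had 212, 272 and 213 at P7 and 213, 206 and 208 at P14 (log2 difference −0.14, limma adjusted p 0.455), and the ages overlapped. These values lay below those of Sptb in the P7 livers and reached at most 0.433 scaled counts per base, and whether the recording of such genes was limited was not tested. Hba-a1 and Hba-a2 had differences of 0.08 each and were not called, and their near-identical copies leave the split of reads between them uncertain. Alas2, the first enzyme of heme synthesis in red cells and also picked afterwards, was called at a smaller size, from 950, 1180 and 985 to 675, 849 and 729 (log2 difference −0.47, limma adjusted p 0.0141). Over the alternatives run, between 20 and 23 red cell genes were called and the list median stayed between −3.54 and −3.22.

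Platelet and megakaryocyte genes fell in the same interval, 14 of 15 called lower (93.3%, against 17.1% of all tested genes) and 0 higher, with a median of −2.38. Gp1ba, the platelet receptor for von Willebrand factor (chr11:70639122-70642036), gave 184, 193 and 249 scaled counts at P7 and 51, 16 and 11 at P14, 8.03-fold lower in the mean (limma adjusted p 5.18e-06). Gp5, of the same receptor complex, had 169, 212 and 236 against 73, 27 and 20, and F2rl2, a thrombin receptor, 181, 181 and 195 against 49, 24 and 14. Itgb3, a subunit of the fibrinogen receptor, fell less, from 762, 896 and 936 to 414, 360 and 203 (log2 difference −1.46). P14 replicate 1 was the highest P14 liver for all 4 genes, and the list sums were 1870, 1167 and 735 at P14 against 3619, 4223 and 4269 at P7. The number of members called was 14 in every alternative run.

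Neutrophil and granule genes were lower as well, 19 of 20 called lower (95%, against 17.1%) and 0 higher, with a median of −2.03. Elane, neutrophil elastase (chr10:79886247-79888215), gave 142, 192 and 191 scaled counts at P7 and 30, 20 and 30 at P14 (log2 difference −2.68, SE 0.28, limma adjusted p 1.88e-06). Ms4a3, a marker of granulocyte and monocyte progenitors, had 73, 93 and 75 against 10, 10 and 5. Cebpe, a factor of late granulocyte maturation, had 77, 80 and 78 against 11, 7 and 16, and Chil3, a chitinase-like protein, 373, 391 and 359 against 103, 82 and 40. The ages did not overlap for any of these 4 genes, which picking by smallest p favours. With P7 replicate 2 as the lone P7 liver the list median was −1.96, and with the length correction all 20 members were called lower.

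On the B cell list 4 of 18 tested genes fell and 0 rose (median −0.52), and on the T and NK cell list 6 of 15 fell and 0 rose (median −0.69). The share lower was 22.2% for B cells, near the 17.1% of all tested genes, and 40% for T and NK cells. Bank1, a B cell scaffold protein, had 175, 135 and 171 at P7 and 71, 76 and 67 at P14 (log2 difference −1.15, limma adjusted p 0.00152). Dntt and Rag1, which build antigen receptors in lymphocyte precursors, had 49, 53 and 84 against 15, 20 and 15, and 106, 59 and 107 against 33, 52 and 23. Cd22, a B cell surface lectin, had 113, 95 and 96 against 52, 74 and 48. The ages did not overlap, but leaving out 1 liver ended the calls of Dntt (limma adjusted p up to 0.103), Rag1 (up to 0.126) and Cd22 (up to 0.144). Among T and NK cell genes, Gzma, a granule protease, fell from 161, 171 and 134 to 57, 77 and 80 (log2 difference −1.12, limma adjusted p 7.07e-05). Il2rb, a receptor for interleukins, had 168, 134 and 118 against 56, 63 and 55, and Lck, a T cell kinase, 79, 87 and 90 against 39, 39 and 45. All 6 values of these genes were split by age. Called genes numbered 0 for B cells and 2 for T and NK cells with P7 replicate 2 alone.

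Genes of antigen presentation by dendritic cells divided. Of 12 tested, 5 fell (41.7%, against 17.1% of all tested genes) and 1 rose (8.33%, against 12.4%), with a median of −0.35. Flt3, a growth factor receptor of dendritic cell precursors, had 41, 42 and 57 scaled counts at P7 and 25, 23 and 11 at P14, and was called lower (log2 difference −1.27, limma adjusted p 0.00832). Siglech, a marker of plasmacytoid dendritic cells, was the riser, from 8, 3 and 9 to 19, 25 and 20 (log2 difference 1.64, limma adjusted p 0.00955). Its counts were low, although every P14 value exceeded every P7 value. A single P7 liver, replicate 2, left 1 call on the list.

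**Figure D3:**
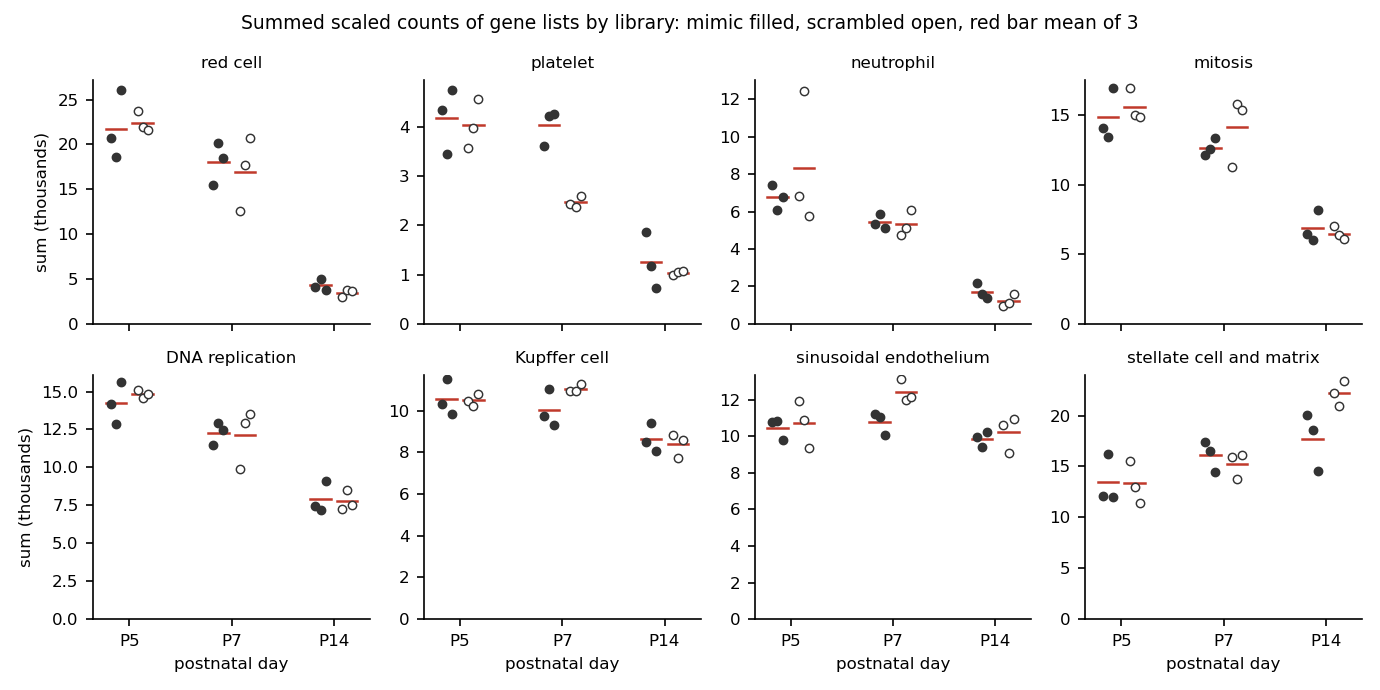
Summed scaled counts (axis in units of 1000) of 8 gene lists in each library at P5, P7 and P14; filled points are mimic livers, open points scrambled livers and red bars means of 3. In mimic livers the red cell sum went from 15435 to 20155 at P7 to between 3811 and 4961 at P14, while the sinusoidal endothelium sum was 10095 to 11205 at P7 and 9430 to 10235 at P14.

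Of 17 Kupffer cell genes, markers of the resident macrophages, 4 fell (23.5%, against 17.1% of all tested genes) and 2 rose (11.8%, against 12.4%), with a median of −0.18. Csf1r, the growth factor receptor of macrophages, had 1279, 1405 and 1229 at P7 and 710, 904 and 727 at P14 (log2 difference −0.75, limma adjusted p 0.000255). Adgre1 (F4/80) had 769, 848 and 756 against 320, 534 and 378, and Spic, a factor of iron-recycling macrophages, 148, 179 and 151 against 77, 90 and 68. Clec4f, a lectin of Kupffer cells named here after its values were seen, had 822, 993 and 799 against 846, 954 and 793 and was not called (log2 difference −0.01). The risers were Nr1h3, the oxysterol receptor LXR alpha (log2 difference 0.39, limma adjusted p 0.00679), and Id3 (0.39, limma adjusted p 0.039), whose call was lost without P14 replicate 1 (limma adjusted p 0.205). The count called depended on the handling of length: it was 10 with the length correction, 9 of them lower, and 3 with P7 replicate 2 alone.

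Of 21 sinusoidal endothelium genes 3 fell (14.3%, near the 17.1% of all tested genes) and 0 rose (median −0.08). F8, coagulation factor VIII, had 437, 381 and 354 at P7 and 204, 232 and 240 at P14, and Cdh5, a junction protein of vessels, 799, 783 and 744 against 529, 591 and 604. Both were split by age, with log2 differences of −0.79 and −0.43. Stab2, a scavenger receptor of this endothelium, was the third (log2 difference −0.30), and with the length correction its difference was −0.04 (limma adjusted p 0.83). Of 22 stellate cell and matrix genes 2 rose (9.09%, near the 12.4% of all tested genes) and 1 fell (4.55%), with a median of 0.20. Reln (reelin), which stellate cells secrete, fell from 2300, 1794 and 2108 to 1199, 1446 and 1112 (log2 difference −0.72, limma adjusted p 0.00351). Rgs5, a gene of vessel wall cells, rose from 453, 314 and 404 to 778, 1093 and 578 (log2 difference 1.03, limma adjusted p 0.0195), and Tagln, a smooth muscle protein, from 192, 285 and 159 to 400, 298 and 252 (0.59, limma adjusted p 0.0346). Without 1 liver the adjusted p reached 0.0871 for Rgs5 and 0.183 for Tagln. The 10 bile duct genes gave 0 calls, with Sox9 at 153, 106 and 185 against 122, 79 and 159. No endothelial or stellate gene, 0 in each list, was called with P7 replicate 2 alone. On a list of muscle, pancreas, gut and fat genes 9 of 17 passed the filter. Of these, 2 were called higher (22.2%, against 12.4% of all tested genes) and 1 lower (11.1%, against 17.1%). Fabp2, a gut fatty acid binding protein (0.34), and Cela1, an elastase (0.58), were higher, and Mylpf, a muscle myosin light chain (−1.63), was lower. Without 1 liver the limma adjusted p reached 0.181 for Fabp2, 0.0532 for Cela1 and 0.0781 for Mylpf. With the length correction 0 members were higher and 1 lower. The list sums were 422 to 516 at P7 and 510 to 609 at P14, and 3 members were at 0 in all 6 livers.

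Genes of cell division were lower at P14. On the mitosis list 21 of 27 tested genes fell and 0 rose (median −0.78), and on the DNA replication list 19 of 27 fell and 0 rose (median −0.71). These are 77.8% and 70.4%, against 17.1% of all tested genes. Mki67, the proliferation antigen Ki-67 (chr7:135689784-135716361), gave 2187, 2330 and 2401 scaled counts at P7 and 657, 591 and 814 at P14. The ages were far apart, 3.35-fold lower in the mean at P14 (log2 difference −1.76, SE 0.17, limma adjusted p 6.4e-07). Kinesin motors of the spindle fell with it: Kif23 had 303, 286 and 336 against 109, 102 and 128, and Kif11 591, 598 and 668 against 243, 269 and 258. Nusap1, which binds spindle microtubules, had 496, 488 and 488 against 271, 264 and 277, with a small spread within each age. The lowest P7 liver exceeded the highest P14 liver for each of these genes. Cdk1, the kinase that starts mitosis, was named after its values were seen because it did not pass: 364, 432 and 415 against 353, 291 and 407 (log2 difference −0.21, limma adjusted p 0.213). The mitosis median was −0.71 with P7 replicate 2 alone, and 23 members were called with the length correction.

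Replication licensing and fork genes showed the same order of size. Cdc6, which loads the replicative helicase, had 245, 303 and 343 at P7 and 81, 70 and 100 at P14 (log2 difference −1.82, SE 0.23, limma adjusted p 1.51e-05). Mcm2, a helicase subunit, had 681, 756 and 704 against 311, 293 and 366, and Lig1, the ligase that joins Okazaki fragments, 632, 719 and 700 against 331, 285 and 458. Uhrf1, which keeps DNA methylation through replication, had 512, 559 and 611 against 210, 168 and 278. In all 4 genes the ages were separate, and P14 replicate 3 was the highest P14 liver. Between 16 and 20 members of the replication list were called over the alternatives.

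Genes known as targets of the miR-15/16/497 seed were examined as a list of 18, of which 8 fell (44.4%, against 17.1% of all tested genes) and 0 rose (median −0.30). Ccne1 (cyclin E1, which drives entry into S phase) had 267, 325 and 309 at P7 and 129, 96 and 224 at P14 (log2 difference −1.08, limma adjusted p 0.0015). Cdc25a, a phosphatase that activates cyclin-dependent kinases, had 332, 304 and 355 against 189, 160 and 230. Igf1r, the receptor for insulin-like growth factor 1, had 233, 179 and 213 against 117, 129 and 102, and Ccnd3, a D-type cyclin, 694, 785 and 719 against 579, 508 and 618. None of these overlapped between ages, with log2 differences of −0.79, −0.84 and −0.37 for the last 3. Both ages had received the mimic, so these counts do not compare the mimic with its absence. In the scrambled livers the same list of 18 had 7 genes lower and 1 higher between P7 and P14 (median −0.23). Among all tested genes 19.4% were lower and 14.4% higher there. No difference between the treatments passed the test for the members of this list. With the length correction 5 of 18 members fell (median −0.12), against 15.4% of all genes with a length. With P7 replicate 2 alone the list median was −0.20.

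Promoters of the dividing-cell and red cell genes are shown because those lists moved together. For genes in the RefSeq promoter table, the 250 bases before the start site were searched on both strands. On the mitosis list, 8 of the 24 promoters (33.3%) held TTTGAA, the core of the cell cycle genes homology region, against 15.99% of all 32851 promoters, and 20 of the 24 (83.3%) held CCAAT, against 33.8%. On the red cell list 8 of 22 promoters (36.4%) held AGATAA, a binding word of the GATA factors, against 9.99% of all. The replication list had TTTGGCGC, a binding word of E2F factors, in 3 of 26 promoters (11.5%, against 0.417% of all), those of Mcm5, Pola1 and Mcm6, and the variant TTTCCCGC in 2 of 26 (7.69%, against 0.895%), those of Cdc6 and Mcm7. These are matches of letters in a fixed window and describe no binding, and the shares were not tested. Below are the upstream windows of Mki67 (chr7:135716380-135716629, minus strand) and Tal1 (chr4:115056176-115056425, plus strand), each 5′ to 3′ toward the start site, with the motif matches of either strand in capitals:

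Mki67: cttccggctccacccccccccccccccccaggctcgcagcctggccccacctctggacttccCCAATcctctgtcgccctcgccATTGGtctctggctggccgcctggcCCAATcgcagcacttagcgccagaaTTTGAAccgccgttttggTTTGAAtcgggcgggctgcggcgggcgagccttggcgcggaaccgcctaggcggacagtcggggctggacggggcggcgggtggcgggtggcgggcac

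Tal1: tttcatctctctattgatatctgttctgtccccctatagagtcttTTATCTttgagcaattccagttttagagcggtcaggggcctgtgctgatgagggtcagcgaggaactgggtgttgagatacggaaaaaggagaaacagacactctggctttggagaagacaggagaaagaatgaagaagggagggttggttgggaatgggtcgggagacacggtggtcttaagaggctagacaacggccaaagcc

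The Mki67 window holds 2 matches to TTTGAA and 3 to CCAAT, and the Tal1 window 1 match to AGATAA. Both genes were among those named above, with log2 differences of −1.76 and −3.11.

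Fetal and imprinted growth genes were mostly lower at P14, by differing amounts. Of 18 tested, 12 fell (66.7%, against 17.1% of all tested genes) and 0 rose (median −0.60). Dlk1, a Notch-like protein of fetal hepatoblasts (chr12:109452849-109463336), had 318, 316 and 290 at P7 and 75, 46 and 56 at P14, 5.22-fold lower in the mean (limma adjusted p 6.66e-07). Meg3, a noncoding RNA of the same imprinted cluster, had 267, 352 and 442 against 136, 64 and 95, a log2 difference of −1.87. Peg10, a retrotransposon-derived gene, had 379, 330 and 405 against 117, 132 and 147, and Grb10, an adaptor that dampens insulin and growth factor receptors, 1752, 1653 and 1567 against 768, 841 and 941. Every P14 value of these 4 genes lay below every P7 value. Afp (alpha-fetoprotein) had 1748, 2091 and 1608 at P7 and 1209, 1016 and 1593 at P14 (log2 difference −0.53, limma adjusted p 0.0178). Its P14 replicate 3 came close to the P7 livers, and without P14 replicate 2 the adjusted p was 0.0891. Igf2, a fetal growth factor, had 3199, 3739 and 2994 against 2853, 2977 and 3218, and H19, the noncoding RNA beside it, 1700, 2071 and 1547 against 2036, 1860 and 1928. Both overlapped between ages and were not called (log2 differences −0.13 and 0.14, limma adjusted p 0.409 and 0.453), and the sign of each changed under another setting. Afp, Igf2 and H19 reached 1.01, 0.79 and 0.91 scaled counts per base. Whether the recording of such genes was limited was not tested. Alb, which reached 1.10, had 1826, 2219 and 1672 against 2244, 2037 and 2055 and was not called (log2 difference 0.16). The list median was −0.61 with P7 replicate 2 alone.

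On the growth hormone axis 4 of 15 genes rose (26.7%, against 12.4% of all tested genes) and 1 fell (6.67%), with a median of 0.10. Stat5a, which relays the growth hormone signal, had 218, 218 and 202 at P7 and 357, 305 and 410 at P14 (log2 difference 0.74, limma adjusted p 0.00321). Bcl6, a repressor that binds at Stat5 sites, had 53, 44 and 38 against 105, 138 and 88, 2.45-fold higher in the mean. Igf1, the growth factor that the liver releases under growth hormone, had 2514, 2606 and 2465 against 3447, 3442 and 3047, a log2 difference of 0.39. The ages did not overlap for these 3, and the Igf1 call was lost without P14 replicate 1 (limma adjusted p 0.0748). Egfr, the epidermal growth factor receptor, was called lower, 1382, 1403 and 1387 against 1140, 1133 and 824 (log2 difference −0.45, limma adjusted p 0.0387), and the ages did not overlap. Its difference was −0.16 (limma adjusted p 0.53) with the length correction, and its adjusted p was 0.183 without P14 replicate 3. The axis had 0 calls with P7 replicate 2 alone. Among 18 hepatocyte transcription factors 3 rose (16.7%, near the 12.4% of all tested genes) and 0 fell (median 0.14). The list had 6 calls with the length correction and 1 with P7 replicate 2 alone. Cebpb, an acute-phase factor, had 217, 256 and 229 against 416, 457 and 363, and Foxa1, a pioneer factor of liver, 93, 79 and 98 against 144, 189 and 137, with log2 differences of 0.81 and 0.78. Zhx2, known as a repressor of Afp, rose by 0.62 (limma adjusted p 0.0361), and the call was not kept in any of the 6 fits that left out 1 liver. Onecut1 was uneven at P14, with 8, 94 and 21 against 94, 56 and 96, and did not pass (limma adjusted p 0.053). Hnf4a, the central factor of hepatocyte identity and named after its values were seen, had 1785, 1683 and 1651 against 1422, 1748 and 1731 and was not called.

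Among genes with separate values that averaged at least 100 scaled counts in the 6 livers, the 12 largest rises held some enzymes and transporters of hepatocytes. Fam180a gave 14, 6 and 9 scaled counts at P7 and 218, 110 and 283 at P14, 21.1-fold higher in the mean and the largest of these rises on the log2 scale (4.23, SE 0.68, limma adjusted p 0.000199). Cyp2c29, a cytochrome P450 of the adult liver (chr19:39269405-39330699), followed with 72, 101 and 41 against 791, 933 and 809, 11.8-fold higher in the mean (log2 difference 3.63, SE 0.45, limma adjusted p 1.12e-05). Slc22a29, of the organic anion transporter family, had 22, 38 and 29 against 300, 327 and 242. No P7 value of these 3 genes reached a P14 value. Prodh (proline dehydrogenase) had 25, 30 and 56 against 218, 201 and 180, 5.4-fold higher in the mean (log2 difference 2.48, SE 0.32, limma adjusted p 1.99e-05). Slc1a2, a glutamate transporter of the hepatocytes around the central vein, had 149, 79 and 80 against 421, 326 and 664. Also among these 12 rises were the neurotrophin receptor Ntrk2 (2.50), the transcript Gm2788 (2.37), Mgp, an inhibitor of calcification (2.35), Cyp2c55 (2.33) and the matrix protein gene Dpt (2.02).

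**Figure D4:**
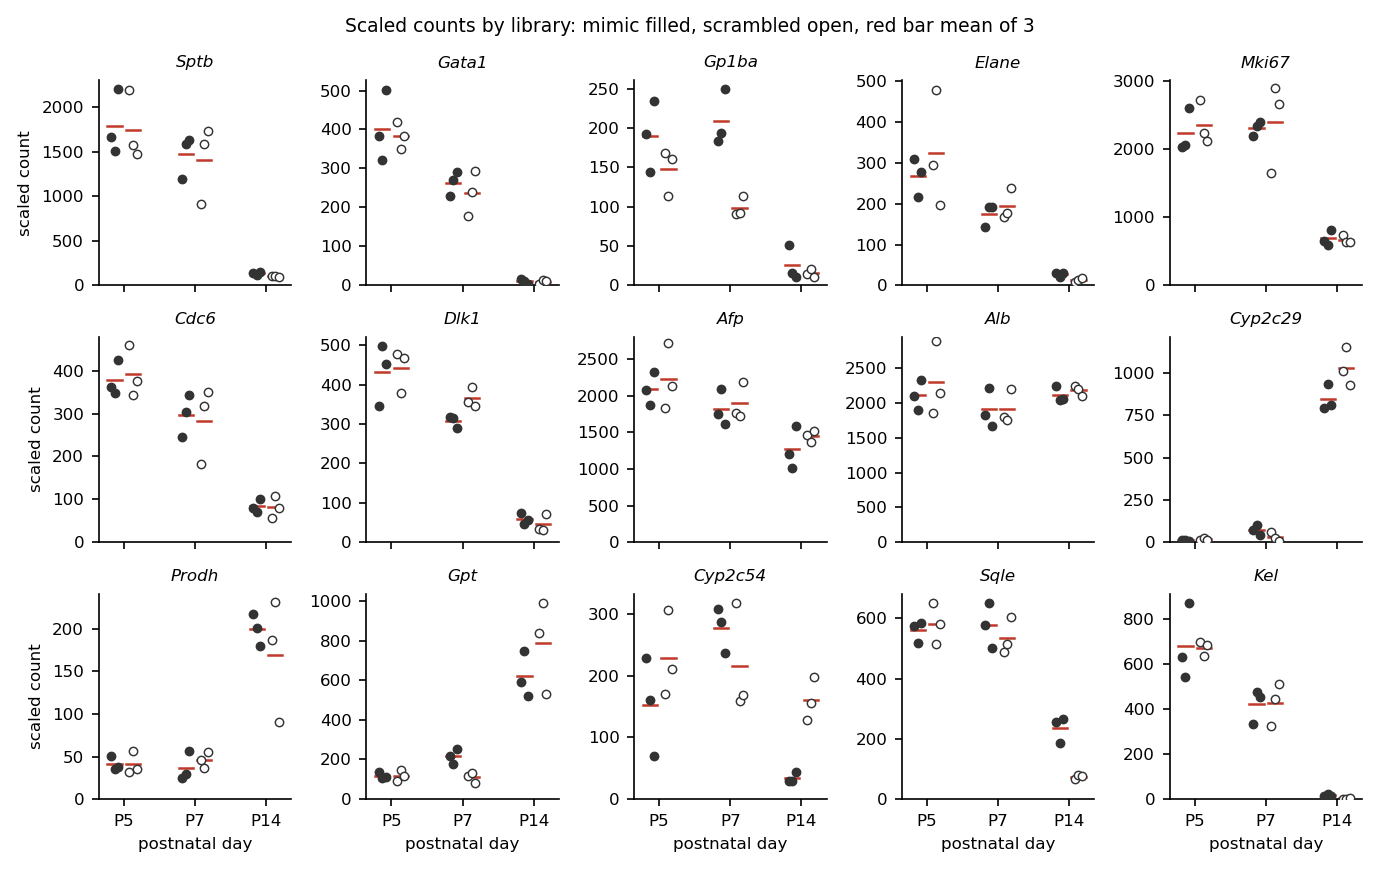
Scaled counts of 15 genes in each library at P5, P7 and P14; filled points are mimic livers, open points scrambled livers and red bars means of 3. In mimic livers Sptb, Gata1, Gp1ba, Elane, Mki67, Cdc6 and Dlk1 are lower at P14 than at P7 in every library, Cyp2c29, Prodh and Gpt are higher, and Alb overlaps.

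Cytochrome P450 genes, which oxidize drugs, steroids and fatty acids, gave 10 of 29 tested higher (34.5%, against 12.4% of all tested genes) and 2 lower (6.9%, against 17.1%), with a median of 0.22. With the length correction 7 were higher and 4 lower (median 0.13). Cyp2c55 had 46, 38 and 33 at P7 and 197, 242 and 164 at P14, and Cyp2c70, which makes muricholic acids in mice, 795, 878 and 748 against 1240, 1253 and 1183. Cyp2c54 (chr19:40037941-40073811) went the other way, from 309, 288 and 238 to 30, 30 and 44, 8.03-fold lower in the mean (log2 difference −2.98, SE 0.34, limma adjusted p 4.8e-06). Cyp3a41a was the other member lower, 25, 26 and 32 against 4, 14 and 13 (log2 difference −1.49, limma adjusted p 0.00325). All 4 genes were split by age. The Cyp2c and Cyp3a genes have near-identical neighbours, and the sources used here do not say how reads shared between copies were counted. The number of members called ran from 3 with P7 replicate 2 alone to 14 with quantile normalization. In 27 members with a RefSeq promoter, 0 held GTTAATNAT, a binding word of HNF1, in the 250 bases before the start, against 0.737% of all promoters and 3 of 24 promoters (12.5%) of plasma protein genes, those of Hc, Alb and Fga. Conjugating enzymes gave 3 of 24 higher (12.5%, against 12.4% of all tested genes) and 0 lower (median 0.20), and with the length correction 1 higher and 1 lower (median 0.09). Their calls, the flavin monooxygenase Fmo5 (log2 difference 0.30), the sulfotransferase Sult1d1 (0.38) and the glucuronosyltransferase Ugt2b36 (0.39), had limma adjusted p between 0.0348 and 0.0397, and without 1 liver these reached 0.116, 0.184 and 0.126. Conjugation genes had 0 calls with P7 replicate 2 alone.

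Bile acid genes gave 2 higher and 2 lower of 18 (11.1% each, near or below the 12.4% and 17.1% of all tested genes), with a median of 0.08. Cyp27a1, which starts the alternative pathway of bile acid synthesis, had 278, 267 and 286 at P7 and 495, 517 and 503 at P14 (log2 difference 0.86, SE 0.10, limma adjusted p 5.45e-06). Cyp7b1, the next enzyme of that pathway, had 25, 17 and 28 against 49, 53 and 47, a log2 difference of 1.09. Both enzymes were higher in each P14 liver. Abcb4, the canalicular phospholipid exporter, fell from 1216, 1232 and 1258 to 816, 1046 and 953, and Klb, the co-receptor for the bile acid hormone FGF15, from 509, 378 and 487 to 206, 359 and 322. Klb was called at a limma adjusted p of 0.0279, which was 0.167 without P14 replicate 1.

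Cholesterol synthesis genes were lower in 13 of 24 cases (54.2%, against 17.1% of all tested genes) and higher in 2 (8.33%, against 12.4%), with a median of −0.37. Sqle, squalene epoxidase, the second rate-limiting step of the pathway (chr15:59315081-59331192), had 578, 652 and 501 at P7 and 256, 187 and 266 at P14, 2.44-fold lower in the mean (log2 difference −1.29, SE 0.14, limma adjusted p 1.88e-06). Lss, which closes the sterol rings, had 569, 550 and 473 against 181, 242 and 258, and Nsdhl, a later enzyme, 356, 391 and 305 against 229, 198 and 230. The ages were separate for these 3 genes. Against the list's direction, Sc5d (log2 difference 0.25) and Ebp (0.32) were called higher at limma adjusted p of 0.0421 and 0.0423, and without P7 replicate 3 these were 0.172 and 0.148. Between 9 and 15 members were called over the alternatives, the fewest with P7 replicate 2 alone. In the upstream windows 1 of 19 promoters (5.26%, against 1.05% of all) held TCACNCCAC, a sterol response element word. It was that of Hmgcs1, the synthase before the rate-limiting reductase, which had 1304, 1440 and 1189 against 1041, 1040 and 1074 (log2 difference −0.31, limma adjusted p 0.0139). The window is chr13:119690101-119690350, plus strand, with the match in capitals:

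Hmgcs1: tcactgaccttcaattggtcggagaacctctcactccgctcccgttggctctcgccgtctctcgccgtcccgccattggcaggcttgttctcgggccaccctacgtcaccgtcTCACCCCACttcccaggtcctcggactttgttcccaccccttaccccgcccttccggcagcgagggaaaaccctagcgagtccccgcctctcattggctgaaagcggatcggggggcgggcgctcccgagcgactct

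Urea cycle and amino acid genes gave 7 of 26 higher (26.9%, against 12.4% of all tested genes) and 0 lower (median 0.25). Gpt, alanine aminotransferase (chr15:76696764-76699674), had 216, 178 and 253 at P7 and 593, 746 and 522 at P14, 2.88-fold higher in the mean (log2 difference 1.52, limma adjusted p 6.87e-05). Oat, which links ornithine and proline, had 502, 478 and 534 against 752, 718 and 911. Arg1, the arginase of the urea cycle, had 744, 875 and 714 against 1058, 1099 and 930, and with the length correction its difference was 0.21 (limma adjusted p 0.094). The ages did not overlap for these 3, whereas Cps1, the first urea cycle enzyme and named after its values were seen, had 3418, 3225 and 3133 against 2496, 3712 and 2927 and was not called (log2 difference −0.12). There were 3 calls with P7 replicate 2 alone and 12 with quantile normalization. Glucose and glycogen genes split, 3 higher (16.7%, against 12.4%) and 5 lower (27.8%, against 17.1%) of 18 (median 0.06). Hk1, a hexokinase of most tissues, fell from 500, 535 and 556 to 176, 126 and 140 (log2 difference −1.85, SE 0.18, limma adjusted p 6.42e-07), and Hk2 from 108, 101 and 123 to 59, 59 and 67. Pkm, the pyruvate kinase of most tissues other than adult liver, had 561, 593 and 572 against 461, 464 and 453. These 3 enzymes were lower in each P14 liver. Khk, which phosphorylates fructose, was higher, 569, 691 and 550 against 890, 826 and 886 (limma adjusted p 0.013), and without P7 replicate 3 its adjusted p was 0.0621. With P7 replicate 2 alone 1 member of this list was called.

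Lipid genes showed opposite calls within 1 list. On the lipogenesis list 4 of 14 rose (28.6%, against 12.4% of all tested genes) and 3 fell (21.4%, against 17.1%), with a median of 0.04. Me1, malic enzyme, which makes NADPH for fatty acid synthesis, had 124, 126 and 127 at P7 and 301, 290 and 297 at P14 (log2 difference 1.23, SE 0.15, limma adjusted p 1.36e-05). Thrsp, a lipogenic regulator, had 13, 22 and 54 against 183, 122 and 108 (2.37, limma adjusted p 0.0361), which was 0.146 without P7 replicate 1. Acly, which supplies acetyl-CoA, fell from 1224, 1191 and 1196 to 694, 926 and 801 (log2 difference −0.59, limma adjusted p 0.00226), and Elovl6, a fatty acid elongase, had 249, 284 and 257 against 175, 99 and 188 (−0.82, limma adjusted p 0.0288). The Elovl6 adjusted p was 0.143 without P14 replicate 2, and with P7 replicate 2 alone 1 gene of the list was called. Fatty acid oxidation gave 2 higher (10.5%, near the 12.4% of all) and 0 lower of 19 (median 0.05): Fgf21, a fasting hormone, with 14, 34 and 42 against 96, 72 and 75, and Acaa1b, a peroxisomal thiolase, with 613, 686 and 617 against 780, 790 and 785. Neither was called with the length correction or with P7 replicate 2 alone. Of 30 plasma protein genes 1 rose and 2 fell (3.33% and 6.67%, below the shares of all tested genes), with a median of 0.17. Of these genes, Alb, Apoa1 and Ttr reached 1.10, 0.94 and 0.85 scaled counts per base. Whether the recording of such genes was limited, and with it the number of calls, was not tested. Apob, the structural protein of very low density lipoprotein, had 7174, 6221 and 6541 against 3515, 5201 and 3782 (log2 difference −0.69, limma adjusted p 0.00678). Its longest transcript has 13934 bases, and its difference was −0.38 (limma adjusted p 0.047) with the length correction and not called with quantile normalization (limma adjusted p 0.66). The other calls, Hc (complement C5, log2 difference −0.44) and Mbl1 (a mannose-binding lectin, 0.33), were lost with the length correction (limma adjusted p 0.15 and 0.21) and without 1 liver (up to 0.136 and 0.124).

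Genes known from the central and portal zones of the lobule were also listed, although bulk RNA gives no position. Of 12 pericentral genes 4 rose (33.3%, against 12.4% of all tested genes) and 0 fell (median 0.62). Of 11 periportal genes 1 rose (9.09%) and 0 fell (median 0.11). Notum, a Wnt target that shuts off Wnt proteins, had 305, 261 and 308 at P7 and 541, 400 and 633 at P14 (log2 difference 0.83, limma adjusted p 0.00323). Lhpp, a phosphatase, had 176, 161 and 214 against 439, 318 and 480, and Lgr5, a receptor that amplifies Wnt signals, 131, 79 and 113 against 175, 168 and 182. With Slc1a2, given above, these were the 4 genes called, and none overlapped between ages. Lgr5 had a limma adjusted p of 0.0531 without P7 replicate 2. Between 3 and 8 pericentral genes were called over the alternatives, the fewest without P7 replicate 2. The periportal call was Arg1.

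The remaining lists held small numbers of calls. For iron and heme 4 of 17 fell (23.5%, against 17.1% of all tested genes) and 1 rose (5.88%), with a median of −0.01: Hmox1, heme oxygenase, went from 569, 660 and 559 to 345, 438 and 346 (log2 difference −0.67, limma adjusted p 0.000285) and Cpox, a heme synthesis enzyme, from 1049, 1167 and 1050 to 822, 911 and 849. Hamp, the iron hormone hepcidin, had 35, 98 and 27 against 13, 23 and 7 (log2 difference −1.74, limma adjusted p 0.0288, and 0.129 without P7 replicate 2). The riser was Bmp6, which induces Hamp, with 13, 23 and 33 against 48, 39 and 38 (limma adjusted p 0.0446, and 0.24 without P7 replicate 1). Fech, the last heme enzyme, was called lower at −0.33, which was −0.11 (limma adjusted p 0.58) with the length correction. Of 12 genes known as targets of the stress factor Nrf2, 4 fell (33.3%, against 17.1%) and 0 rose (median −0.11). G6pdx, the entry of the pentose phosphate pathway, had 298, 313 and 302 against 126, 122 and 141 (log2 difference −1.23, limma adjusted p 4.68e-06), and Nqo1, a quinone reductase, 173, 180 and 182 against 90, 92 and 154. The ages were separate for both. With P7 replicate 2 alone 1 Nrf2 list gene was called.

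Oxidative phosphorylation genes, with a median length of 1896 bases, gave 10 of 21 higher (47.6%, against 12.4% of all tested genes) and 0 lower (median 0.32). Ndufb5 and Ndufb8, subunits of complex I, had 289, 376 and 289 at P7 and 457, 415 and 432 at P14, and 221, 260 and 205 against 342, 336 and 294. Cycs, cytochrome c, had 100, 122 and 108 against 177, 165 and 167 (log2 difference 0.62, limma adjusted p 0.00732). P7 replicate 2 was the highest P7 liver for each. The count was 5 with the length correction (median 0.11), 0 with P7 replicate 2 alone and 16 with quantile normalization. The 20 ribosomal protein genes gave 0 calls and a median of 0.16, which was −0.06 with the length correction. Retinoid genes gave 2 of 10 higher (20%, against 12.4% of all tested genes) and 0 lower (against 17.1%). Rdh16, a retinol dehydrogenase, had 371, 265 and 304 against 487, 517 and 579. Aldh1a1, which makes retinoic acid, had 179, 239 and 259 against 452, 463 and 290. The Aldh1a1 call was lost without P7 replicate 1 (limma adjusted p 0.0661). With the length correction 2 members were higher and 1 lower. The circadian clock list gave 2 of 18 higher (11.1%) and 1 lower (5.56%), no more than among all genes: Per1 had 186, 171 and 143 against 246, 370 and 246, Npas2 25, 35 and 36 against 91, 67 and 54, and Cry2 449, 388 and 461 against 247, 334 and 355. All 3 clock calls were lost without 1 liver (limma adjusted p up to 0.118, 0.16 and 0.183), and the time of day of harvest is not in the labels. Interferon and MHC class I genes gave 1 of 18 higher (5.56%, against 12.4% of all tested genes). It was Bst2, with 274, 329 and 272 against 441, 365 and 408, which was not called with the length correction (limma adjusted p 0.17).

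The same step in the scrambled livers was measured in 6 other libraries. Of these, P7 replicates 1 and 3 held the high sums of muscle, pancreas, gut and fat genes given above (2114 and 977) and replicates 2 and 3 the high numbers of genes above 0, and the part of either in what follows was not tested. The rank correlation with transcript length was 0.144, 0.433 and 0.211 in P7 scrambled replicates 1, 2 and 3. In scrambled livers 4765 genes (33.8%) were called, 2032 higher (14.4%) and 2733 lower (19.4%). In mimic livers 1076 genes were called with a change of at least 1 log2 unit. Of these, 1061 had the same sign in scrambled livers and 912 were called there in the same direction. With P7 scrambled replicates 1 and 3 left out, a choice made after seeing the data in which the lone P7 liver is assumed to vary like the other groups, 3203 genes were called, and of the 1076 genes 1060 had the same sign and 805 were called in the same direction. Across the 14104 genes the 2 sets of log2 changes had a Pearson r of 0.829, a description across genes, which are not replicates. The difference between the 2 changes passed the test for 1 gene (0.00709% of 14104 genes), which fell less in mimic livers, and for 0 (0%) in the other direction, while 1114 genes had an unadjusted p below 0.05. That gene was Sqle, with 487, 515 and 604 scaled counts at P7 and 67, 81 and 75 at P14 in scrambled livers. Its change was −2.83 there and −1.29 in mimic livers, a difference of 1.54 (SE 0.19, limma adjusted p 0.00295). P7 levels overlapped between the treatments, and at P14 every mimic liver, at 187 to 266, was above every scrambled liver. The difference was called in every alternative that was run, with limma adjusted p between 0.000263 and 0.034.

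The count depended on the libraries: 13 genes were called without P7 scrambled replicate 1, 6 without replicates 1 and 3, 2 without replicate 2 and 2 without P14 scrambled replicate 3. It was 6 with the replicate block and 5 with only the libraries compared. The 5 genes next to Sqle by p did not pass with all 18 libraries, and 4 of them passed under at least 1 of these settings. Cyp2c54 fell by 2.98 in mimic livers and had 319, 159 and 169 against 128, 156 and 199 in scrambled livers (change −0.37), a difference of −2.62 (SE 0.48, limma adjusted p 0.175). Kel had 325, 444 and 511 against 2, 2 and 6 in scrambled livers (change −6.72), a difference of 2.15 (SE 0.40, limma adjusted p 0.175). Scrambled P14 counts of Kel were at the bottom of the scale, where the added 1 sets the size of the change. Without P7 scrambled replicate 1 both passed, Cyp2c54 at −2.935 (limma adjusted p 0.0166) and Kel at 2.33 (limma adjusted p 0.042). Cyp2c54 also passed with only the libraries compared (limma adjusted p 0.00997), and Kel with the replicate block (limma adjusted p 0.048) and without P14 scrambled replicate 3 (2.56, limma adjusted p 0.0038). Timp3, an inhibitor of matrix proteases, had 399, 429 and 395 against 337, 294 and 230 in mimic livers and 381, 319 and 319 against 422, 419 and 565 in scrambled livers, a difference of −0.98 (limma adjusted p 0.184), which was −1.06 (limma adjusted p 0.0486) without P7 scrambled replicate 1. Rdh16 differed by −1.19 (limma adjusted p 0.184), with changes of 0.76 in mimic and 1.95 in scrambled livers, and passed with only the libraries compared (limma adjusted p 0.00997). G0s2, an inhibitor of triglyceride breakdown, had changes of 0.35 and −0.57, a difference of 0.92 (limma adjusted p 0.19), and its mimic change was lost without P7 replicate 3 (limma adjusted p 0.263).

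**Figure D5:**
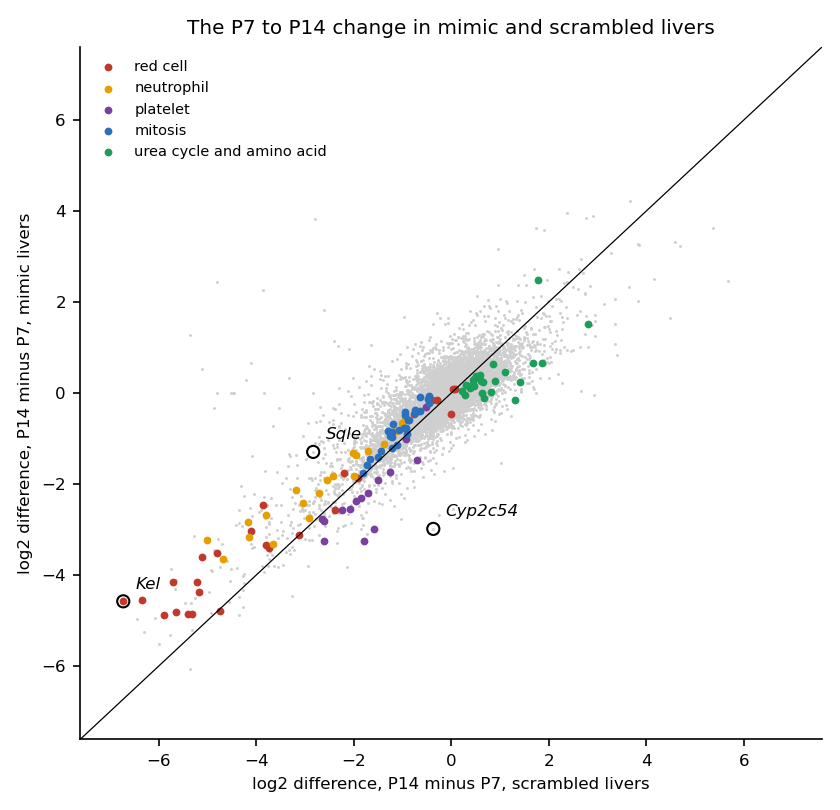
Log2 difference between P14 and P7 in mimic livers (vertical axis) against the same difference in scrambled livers (horizontal axis) for 14104 genes, with 5 lists coloured, the line of equal change, and Sqle, Kel and Cyp2c54 circled. The red cell, platelet and neutrophil genes lie at the lower left in both treatments, and Sqle lies at −1.29 in mimic and −2.83 in scrambled livers.

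Several lists had more calls in scrambled than in mimic livers, and the lists were not tested against each other. Among all tested genes 14.4% were called higher in scrambled livers and 12.4% in mimic livers. Urea cycle and amino acid genes had 25 of 26 higher in scrambled livers (median 0.63) beside 7 in mimic livers (median 0.25). Stellate cell and matrix genes had 15 of 22 higher (median 0.64) beside 2 (median 0.20), conjugation genes 13 of 24 (median 0.31) beside 3 (median 0.20), and growth hormone axis genes 10 of 15 (median 0.58) beside 4 (median 0.10). Without P7 scrambled replicates 1 and 3 the medians of these 4 lists were 0.55, 0.80, 0.38 and 0.52 in that order, against −0.01 over all tested genes. The scrambled calls in each of these 4 lists were fewer in that fit, which kept a single P7 scrambled liver. Platelet genes had a median of −1.80 in scrambled and −2.38 in mimic livers. Their summed scaled counts in scrambled livers were 2433, 2379 and 2607 at P7, each below the 3619 to 4269 of P7 mimic livers, and 996, 1061 and 1069 at P14, within the 735 to 1870 of P14 mimic livers. For the members of these lists the difference between treatments did not pass the test, which does not show that the changes were alike. The rank correlation of the change with transcript length also differed between treatments, −0.339 in mimic and −0.225 in scrambled livers, and its part in these counts was not tested.

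The earlier step, from P5 to P7 in mimic livers, shares the P7 libraries and is set beside the later one only as values. It gave 1416 calls (10%), 941 higher (6.67%) and 475 lower (3.37%). Red cell genes had 1 of 26 lower at P7 than at P5 (median −0.33), beside 22 lower between P7 and P14. Platelet genes had 0 calls (median −0.07) beside 14, and neutrophil genes 1 lower (median −0.37) beside 19. Mitosis genes had 9 of 27 lower (median −0.36) beside 21, and cholesterol synthesis genes 0 lower and 1 higher beside 13 lower and 2 higher. Cyp2c29 had 14, 13 and 7 scaled counts at P5, below the 41 to 101 of P7, and Cyp2c54 had 229, 161 and 70. Sqle had 575, 519 and 584 at P5, within reach of the P7 values.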

How the data were processed

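Libraries were made from poly(A) RNA of mouse liver with a stranded kit, per the labels' protocols. The submitters' processing notes name Trimmomatic 0.39, STAR 2.6.1d, Picard 2.21.7, featureCounts 1.6.5, DESeq2 1.26.0 and the build mm10 (GRCm38), with no settings. The deposited table holds 1 score per gene and library, whole numbers that, judged from the values, are counts the authors divided by a library factor and rounded (scaled counts in the text). They are treated as normalized values, so no count model was used, and the sequenced depth is unknown. The sources used here do not say what Picard was used for.

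Genes averaging at least 10 across the 18 libraries were kept (14104 of 31165, 45.3%). The log2(score + 1) values of 6 group means were fitted to all 18 libraries with limma 3.58.1 in R 4.3.3 (eBayes, variance trend on, with 6.495 prior added to 12 residual degrees of freedom), p-values were adjusted by Benjamini-Hochberg over all 14104 genes, and 0.05 was the threshold. "Called" means past it, fold values are ratios of group means, and log2 differences understate the change of low genes. In data simulated for P14 against P7 in mimic livers on 14104 genes the fit called 52.2%, 76.1% and 90.9% of genes changed 1.5-, 2- and 4-fold, with 7 false calls. Only 200 genes were changed there, all libraries otherwise shared the same gene means, and no trend with transcript length was included. These rates therefore need not hold for the livers. Groups came from the labels, and replicate numbers were not used as pairs. Tables and figures were made with Python 3.11.15, numpy 2.4.6, pandas 2.3.3 and matplotlib 3.10.9.

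Genes named in the text were the 12 largest rises and falls with separate values and a mean of 100 or more over the 6 livers, up to 4 members of each list by smallest p, up to 2 called members against a list's direction, a few fixed genes (Afp, Alb, Igf2, H19, Sqle, Kel and Cyp2c54), the 6 genes of smallest p for the difference between treatments, and the genes whose promoters were chosen for a motif. Exceptions are marked where they occur, and some genes that the rule picks are not reported here. The members, gene lists and tests were chosen with earlier results of these data known. Sequences are from RefSeq tables on GRCm38.p6. The length correction removes, in each library, a smooth trend of the deviation on transcript length. It and the fits with P7 replicate 2 alone, and the scrambled step without P7 scrambled replicates 1 and 3, were chosen after seeing the data.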

Additional observations from a re-analysis of the deposited data

Results flagged for a closer look

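Sqle, the squalene epoxidase gene of cholesterol synthesis, was singled out because its change from P7 to P14 differed between mimic and scrambled livers in a test of that difference. Its log2 change was −1.29 in mimic livers and −2.83 in scrambled livers, a difference of 1.537 (SE 0.19, limma adjusted p 0.00295). All 3 mimic P14 livers (256, 187 and 266 scaled counts) were above all 3 scrambled P14 livers (67, 81 and 75). It was the 1 gene of 14104 past the threshold, and the next adjusted p was 0.175.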

How the results depend on the processing

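The counts of 4163 called, 1750 higher and 2413 lower genes stayed within 1.5 times under log2(score + 5), no filter, a mean of 50, TMM scaling, quantile normalization, no trend, the replicate block (1654 higher and 2349 lower), only the libraries compared, no P7 scrambled libraries and the length correction. Deviations of same-numbered P7 and P14 mimic livers correlated at 0.0053, −0.036 and 0.24 for replicates 1, 2 and 3. Differently numbered livers gave −0.20 to 0.20, and the numbers were not taken as pairs. The block within only the libraries compared gave 1083 higher. With P7 replicate 2 alone 956 genes were called, 192 higher and 764 lower, and the lone liver was assumed to vary like the other groups. Leaving out each liver in turn gave 2448 to 4244 called, 791 to 1881 higher and 1644 to 2363 lower. The cause was not tested.

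The difference between treatments was called for 6 genes with the replicate block, 5 with only the libraries compared, 6 without P7 scrambled replicates 1 and 3, and 1 to 13 without single livers, the most without P7 scrambled replicate 1. Of 136 called genes that the naming rule picks, without those not reported here, 93 were called in every fit without 1 liver. Differences that changed sign, none of them called, were Sox9 (0.12), H19 (−0.0942), Alb (−0.0727), Rpl10a (−0.0483) and Rps9 (−0.0662) with P7 replicate 2 alone, Rps9 (−0.00698) and Gstt1 (−0.00338) with the length correction, and Igf2 (0.15) with quantile normalization. Sequenced depth is unknown, and differences of low genes are limited by rounding to whole numbers.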
